A study of Mus musculus with 18 samples.

Results

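Immediate-early and stress transcription genes were followed in the renal cortex of mice given anti-GBM antibody, which binds the glomerular basement membrane and starts an immune nephritis in susceptible strains. The set holds 10 of the 34509 gene symbols in the table of B6 and NZW mice: Fos, Jun, Junb, Egr1, Atf3, Dusp1, Ier3, Klf6, Myc and Zfp36. Members were found by gene symbol, which gave 13 of the 46632 probes in the table of B6 and NZW mice, and by a shared search key, which gave 5 of the 46147 rows in the table of BALB/C, DBA1 and 129/svj mice. The rows of the second table were those of Junb, Egr1, Ier3, Klf6 and Myc, so Fos, Jun, Atf3, Dusp1 and Zfp36 were read in B6 and NZW alone.

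All 15 mice, 3 of each strain, were 2 months old and had received the antibody, and every array carries cortex RNA taken after that challenge. B6 and BALB/C are named resistant in the sample labels, and NZW, DBA1 and 129/svj sensitive. No genotype beyond the strain, dose or time after injection is given in the labels, and arrays of untreated kidneys were not analysed here, so a difference between strains holds both the level before the antibody and the response to it. The first mouse of BALB/C, DBA1 and 129/svj had been run on a second array, which was averaged with its first, giving 18 arrays. Each array had a median signal of 81.1 to 151.6 and detected 30.5% to 36.4% of its probes. Correlations over tested probes were 0.987 to 0.989 between repeat arrays of 1 mouse and 0.957 to 0.993 between mice of a strain. Cortex markers were in place: all 9 proximal tubule markers and 5 of 6 podocyte markers with a probe were tested in the table of B6 and NZW.

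Immediate-early genes are transcribed within minutes of a stimulus, from factors already present in the cell, and their mRNAs are short-lived. Serum response factor bound to CArG boxes, CREB bound to cyclic AMP response elements and the MAP kinases that activate these factors drive most of them. Fos, Jun and Junb proteins pair to form the transcription factor AP-1. Egr1 and Klf6 are zinc finger transcription factors, Atf3 is a stress-induced factor that binds CREB-type sites, and Myc is a basic helix-loop-helix factor that drives growth genes. Others restrain the response: Dusp1 encodes a phosphatase that removes phosphate from MAP kinases, and Zfp36 (tristetraprolin) binds AU-rich mRNAs and speeds their decay. Ier3 encodes a small protein tied to cell survival under stress. In kidney these genes are known to be induced by ischemia, toxins and inflammation.

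Upstream sequence is shown for Jun, Fos, Dusp1 and Zfp36, because Jun was the member called between strains, Fos was its AP-1 partner with the opposite sign, and Dusp1 and Zfp36 carried the classical elements. The sequences are from RefSeq, build GRCm38.p6. The table of promoters used here matched 8 of the 10 genes (not Egr1 and Myc), and each sequence runs 5′ to 3′ over the 250 bases before the transcription start. Capitals mark matches, on either strand, to the CArG box, the CRE TGACGTCA, its core TGACG, the AP-1 site TGACTCA, the related element TGACATCA, the EGR site GCGGGGGCG, the E-box CACGTG and TATAAA. The core TGACG is also the start of the CRE, so a CRE counts for both.
Jun, chr4:95052223-95052472, minus strand: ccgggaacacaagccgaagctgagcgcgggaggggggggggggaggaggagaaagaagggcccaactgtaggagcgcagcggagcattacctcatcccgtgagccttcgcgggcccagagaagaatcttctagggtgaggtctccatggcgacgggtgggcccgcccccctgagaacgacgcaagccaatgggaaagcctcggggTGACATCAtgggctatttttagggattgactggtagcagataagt
Fos, chr12:85473640-85473889, plus strand: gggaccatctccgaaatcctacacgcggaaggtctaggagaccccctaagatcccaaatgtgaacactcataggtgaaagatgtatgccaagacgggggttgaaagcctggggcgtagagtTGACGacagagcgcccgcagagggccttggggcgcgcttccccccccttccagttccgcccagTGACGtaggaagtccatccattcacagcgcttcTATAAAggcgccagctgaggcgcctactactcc
Dusp1, chr17:26508473-26508722, minus strand: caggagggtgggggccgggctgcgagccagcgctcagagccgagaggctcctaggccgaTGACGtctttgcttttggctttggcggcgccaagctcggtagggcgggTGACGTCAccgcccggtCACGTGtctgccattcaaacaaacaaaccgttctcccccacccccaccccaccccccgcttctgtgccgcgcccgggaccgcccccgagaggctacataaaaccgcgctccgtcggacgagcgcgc
Zfp36, chr7:28379229-28379478, minus strand: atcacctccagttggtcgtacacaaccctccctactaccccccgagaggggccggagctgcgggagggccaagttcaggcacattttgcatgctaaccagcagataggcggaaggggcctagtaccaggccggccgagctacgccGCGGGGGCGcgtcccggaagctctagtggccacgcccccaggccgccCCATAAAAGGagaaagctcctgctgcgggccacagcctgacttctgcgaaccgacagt
Jun held TGACATCA at bases -45 to -38, counted from the start, as Klf6 did at -119 to -112, and 2.93% of 32851 promoter windows of the same length held it. Fos held the core TGACG at -129 to -125 and at -66 to -62, and TATAAA at -33 to -28; the core was found in 4 of the 8 genes (Fos, Junb, Atf3 and Dusp1) and in 17.8% of all windows, and TATAAA in 1 of the 8 and in 12.4%. Dusp1 held a full CRE at -143 to -136, found in 1.55% of windows, another core at -191 to -187 and an E-box at -126 to -121. The E-box was also present in Klf6, and in 6.02% of windows. Zfp36 held a CArG box at -58 to -49, found in 1.47% of windows, and an EGR site at -105 to -97, found in 2.57%. No member window held TGACTCA, present in 4.46% of all windows, and Ier3 held none of the listed motifs. These matches describe the letters only.

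Whether the sensitive strain NZW and the resistant strain B6 differ in this response was asked in the table that holds both. All values below are log2 signals after background correction and quantile normalization, and a gene is called where the adjusted p is below 0.05. Jun mRNA was lower in B6, 1.71-fold, and Fos, Dusp1 and the other members did not pass the threshold. Of 13 probes, 9 (1 for each gene but Myc) were detected in at least 3 of the 6 mice and tested, and 1 was called, against 18.8% of all 16756 probes tested in this comparison and 9.61% called lower in B6, so the share called among the members is near the background.

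Jun, the AP-1 subunit that can also pair with itself, read 9.43, 9.64 and 9.13 in the 3 NZW mice and 8.79, 8.61 and 8.47 in the 3 B6 mice. Every B6 mouse was below every NZW mouse. The log2 difference of B6 minus NZW was -0.78 (SE 0.15, n = 3 mice per strain, adjusted p = 0.00821 in limma). Fos, its usual partner, read 7.03, 6.99 and 6.58 in NZW and 7.59, 7.38 and 7.17 in B6. Here every B6 mouse was above every NZW mouse. The difference of 0.51 (SE 0.16, adjusted p = 0.0578 in limma) did not pass, and the p ran from 0.0304 to 0.182 over 15 alternative settings (1 of them without adjustment), with 4 below the threshold. Jun and Fos were the members without overlap between the strains, 2 of 9, while the mice did not overlap in 37.3% of all probes tested. Junb, the AP-1 subunit that often limits Jun, read 9.63, 9.52 and 9.25 in NZW and 9.42, 9.17 and 9.11 in B6, with overlap, and the difference of -0.23 (SE 0.14) had an adjusted p of 0.301 in limma. A second Junb probe was not detected in any of the 6 mice.

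Dusp1, the MAP kinase phosphatase, read 12.66, 11.97 and 12.42 in NZW and 11.97, 11.40 and 11.66 in B6. The lowest NZW mouse stood level with the highest B6 mouse. Its difference of -0.67 (SE 0.20, adjusted p = 0.0508 in limma) lay at the threshold, and 7 of 15 alternative settings placed it below. Over all 15, 1 of them without adjustment, the p ran from 0.00274 to 0.198. Zfp36, the mRNA decay factor, read 11.50, 10.71 and 11.00 in NZW and 10.82, 10.59 and 10.61 in B6, with overlap (difference -0.40, SE 0.19, adjusted p = 0.199 in limma). Ier3 was nearly flat at 11.95, 11.91 and 12.10 in NZW and 11.96, 11.95 and 11.93 in B6. Its difference was -0.04 (SE 0.10, adjusted p = 0.843 in limma).

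Egr1, which is switched on through serum response factor, read 10.50, 9.84 and 10.07 in NZW and 10.28, 10.08 and 9.86 in B6. The mice of both strains were interleaved, and the difference was -0.07 (SE 0.18, adjusted p = 0.844 in limma). Atf3 was dim, at 6.75, 6.43 and 5.86 in NZW and 5.97, 6.10 and 5.21 in B6, and was detected in 3 NZW and 2 B6 mice. Its difference of -0.59 (SE 0.28) had an adjusted p of 0.189 in limma. The bright Klf6 probe read 11.77, 11.58 and 11.67 in NZW and 11.61, 11.39 and 11.20 in B6, a difference of -0.28 (SE 0.13, adjusted p = 0.185 in limma). The strains overlapped in Klf6 by the lowest NZW mouse and the highest B6 mouse. A second Klf6 probe was detected in 1 B6 mouse, and the brighter of 2 Myc probes in 1 mouse of each strain, so neither gave a level to compare. The other Myc probe was detected in none.

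**Figure D1:**
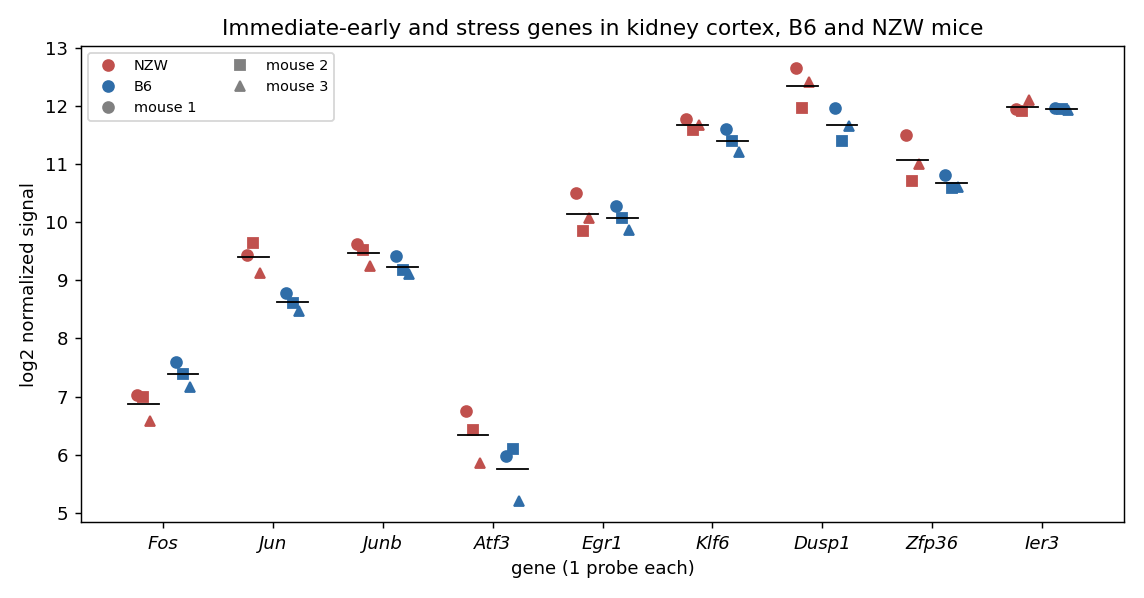
Log2 normalized signal (y axis) of the 9 tested members (x axis) in each NZW mouse (red) and B6 mouse (blue), with the mouse number as the symbol and the strain mean as a black bar, n = 3 mice per strain. The 3 B6 mice lie below the 3 NZW mice for Jun and above them for Fos.

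Over the 9 tested members, 8 had a difference below 0, with a median of -0.28, beside 56.2% below 0 and a median of -0.04 over all tested probes. Scaling the arrays to a common 75th percentile in place of quantile normalization moved the median of all tested probes to -0.14, the share below 0 to 67.2% and the calls over all probes from 1547 higher and 1610 lower to 1380 higher and 2453 lower. Under that scaling 4 members were called, all lower in B6: Jun (-0.93), Dusp1 (-0.87), Zfp36 (-0.60) and Klf6 (-0.49).

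The other genes of the pathway were read from 10 lists, 107 genes in all with a tested probe. Of these, 24 were lower and 3 higher in B6, beside 1610 lower (9.61%) and 1547 higher among all 16756 tested probes. A difference below 0 was read for 76 of the 107, and for 56.2% of all tested probes. Their median was -0.15, against -0.04 over all tested probes. The count lower was 8 with the methods' t-test after adjustment and 9 to 19 when 1 mouse was left out, at 9 without the third B6 mouse, 12 without the first NZW mouse and 13 without the second B6 mouse. Among MAP kinase phosphatases and feedback inhibitors, relatives of Dusp1, 5 of 11 tested genes were lower and none higher, and the median was -0.46. Dusp5, a nuclear ERK phosphatase, was lower in B6 by 1.56-fold (adjusted p = 0.0232 in limma), and Dusp2 by 1.52-fold (adjusted p = 0.00331). Among KLF relatives 5 of 10 were lower, with a median of -0.42. They included Klf1, the erythroid Klf factor, at -1.07, and Klf15 at -0.70.

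Among other immediate-early genes, 6 of 22 were lower and 1 was higher. Per1, a clock gene with a CRE-driven immediate response, was 2.92-fold lower in B6 (adjusted p = 0.000502 in limma), at 7.93, 7.22 and 7.72 in NZW and 6.21, 6.08 and 5.95 in B6. Cebpd, a factor of the acute phase response, was 1.89-fold lower. The gene higher was Ctgf, a matrix-associated growth factor, with a mean of 8.87 in NZW and 10.88 in B6, a log2 difference of 2.01 (SE 0.14) or 4.03-fold (adjusted p = 1.92e-05 in limma). In Per1 and in Ctgf the mice of the strains did not overlap.

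The kinases and factors upstream of the response had 3 of 19 genes lower and none higher (median -0.20), with Map2k6, a p38 kinase activator, at -1.15 and Rps6ka1, an ERK-activated kinase, at -0.76. Of the AP-1 relatives, 1 of 3 was lower, Maff at -0.38. The stress list around ATF4 had 2 of 12 lower and 1 higher: Myd116, the eIF2 phosphatase subunit, at -0.82, Herpud1, an endoplasmic reticulum stress gene, at -0.43, and Atf5 at 0.73. In the MYC network Mxd4 was lower (-0.38) and Mga higher (0.63) among 11 tested, and in AU-rich RNA decay Cnot7 was lower (-0.68) among 6. None of 4 tested EGR and NR4A genes and none of 9 heat shock genes was called.

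**Figure D2:**
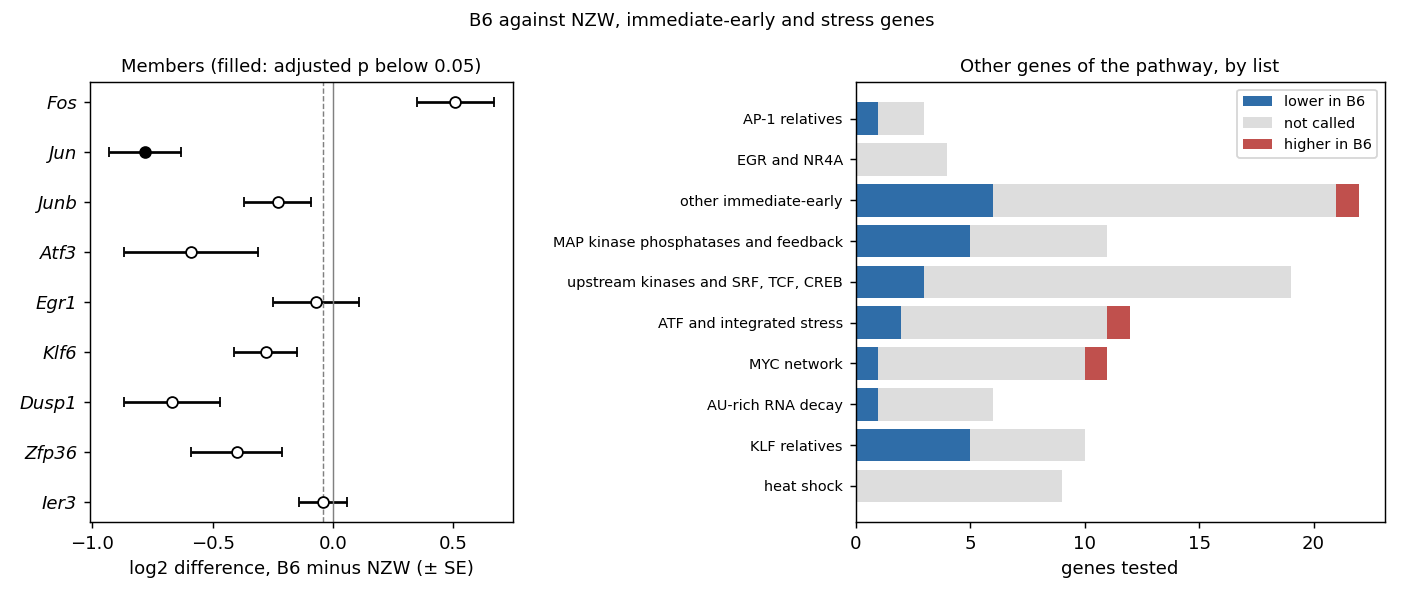
Left, the log2 difference of B6 minus NZW (x axis) with its SE for each tested member, filled where called, with a solid line at 0 and a dashed line at the median of all tested probes, -0.04. Right, the number of tested genes (x axis) in each of 10 pathway lists that were lower in B6, not called or higher in B6; lower calls outnumber higher ones, 24 to 3.

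The cortex is a mixture, and in such RNA fewer cells of a type and less RNA per cell cannot be told apart. Cell type markers differed between these strains beside the genes above. The summed signal of 10 tested macrophage markers (of 12 with a probe; Itgam and Lyz did not pass the filter) was 4010 to 7380 in B6 and 3090 to 3820 in NZW. Those of 7 neutrophil markers (of 8; without Il8rb) were 6450 to 12300 and 3870 to 4320, and those of the 9 proximal tubule markers 76300 to 88100 and 95800 to 104000. Leukocyte markers were thus brighter in every B6 mouse and proximal tubule markers in every NZW mouse, while distal nephron markers overlapped (43900 to 46500 in B6 and 38700 to 46000 in NZW). Their part in the differences of the members was not tested.

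The table of BALB/C, DBA1 and 129/svj held 3 testable members, Egr1, Ier3 and Klf6. The Junb and Myc rows were not detected in any of its 9 mice. Search keys of Klf6 and Myc belong to 2 probes each, and which of the 2 a row stands for is not settled. No member was called in any comparison of these strains, while 5.75% of 15818 probes were called between BALB/C and DBA1, 4.82% between BALB/C and 129/svj, 4.48% between DBA1 and 129/svj, and 5.99% between BALB/C and the mean of the sensitive strains. At an unadjusted p below 0.05 in limma, Ier3 was the member that passed between BALB/C and DBA1, as did 18.3% of all tested probes. It also passed between BALB/C and the mean of the sensitive strains, as did 18.8%. No member passed between BALB/C and 129/svj (15.2% of all tested probes) or between DBA1 and 129/svj (13.8%). The methods' t-test, unadjusted, passed Ier3 and Egr1 between BALB/C and DBA1, among 2728 of the 15818 probes, and neither after adjustment.

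Ier3, the survival gene, read 9.82, 9.98 and 10.48 in BALB/C, 10.83, 11.08 and 10.78 in DBA1 and 10.08, 10.32 and 11.02 in 129/svj. Every BALB/C mouse was below every DBA1 mouse, as in 25.5% of all probes in one direction or the other, and 129/svj overlapped both. Cell markers also separated these strains: the summed signal of 5 tested macrophage markers (of 6 with a probe; without Lyzs) was 472 to 769 in BALB/C and 1230 to 2310 in DBA1, and that of loop, distal tubule and collecting duct markers 25200 to 27800 and 18400 to 23300. Their part in Ier3, Egr1 or Ctgf was not tested. The difference of BALB/C minus DBA1 in Ier3 was -0.80 (SE 0.25, adjusted p = 0.111 in limma). It passed in 3 of 20 alternatives, 1 of them without adjustment, and the adjusted p ran from 0.0235 to 0.307. Egr1 read 7.37, 7.64 and 8.20 in BALB/C, 8.29, 9.47 and 9.01 in DBA1 and 7.11, 6.15 and 9.47 in 129/svj. BALB/C lay below DBA1 without overlap here too, but the difference of -1.19 carried an SE of 0.69 (adjusted p = 0.421 in limma).

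The third 129/svj mouse set the spread of Egr1. Its value was 9.97-fold above that of the second mouse of its strain, and it also had the highest Ier3 and Klf6 signals of the 3. Egr1 in DBA1 minus 129/svj was 1.34 (SE 0.69, adjusted p = 0.459 in limma). Over the 20 alternatives, 1 of them unadjusted, its p ran from 0.0111 to 0.869. Without the second 129/svj mouse the difference was 0.63 and was not called. Without the third 129/svj mouse it was 2.29 and was called (adjusted p = 0.0111 in limma). Ier3 in BALB/C minus DBA1 was then called too, with the difference still -0.80 (adjusted p = 0.0384). The order of BALB/C and 129/svj in Egr1 turned on single mice as well, from -0.56 without the second 129/svj mouse to 1.10 without the third, beside 0.15 with all mice (adjusted p = 0.955 in limma).

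Klf6, the zinc finger factor induced in injured epithelium, read 10.50, 10.34 and 10.18 in BALB/C, 9.89, 10.68 and 11.29 in DBA1 and 10.02, 9.86 and 11.26 in 129/svj. BALB/C mice lay close together, within the wide range of both sensitive strains. The differences were -0.28 (SE 0.40) against DBA1 and -0.04 (SE 0.40) against 129/svj, with adjusted p values of 0.780 and 0.983 in limma.

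**Figure D3:**
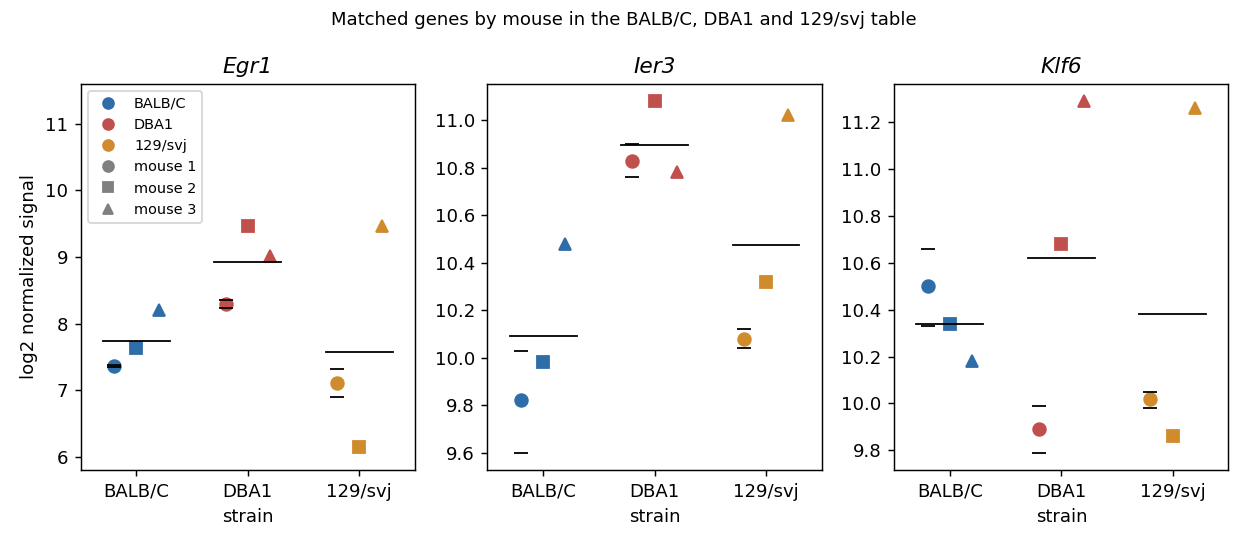
Log2 normalized signal (y axis, its range set for each gene) of Egr1, Ier3 and Klf6 by strain (x axis), 1 symbol per mouse, with the strain mean as a long bar and the first and repeat array of mouse 1 as short ticks, n = 3 mice per strain. The third 129/svj mouse is the highest of its strain in all 3 genes, at 9.47, 11.02 and 11.26.

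In the same table other pathway genes gave few calls, on 34 tested genes: 3 lower in BALB/C than in DBA1, 1 lower in BALB/C than in 129/svj, and 3 higher and 1 lower in DBA1 than in 129/svj. The gene lower than in 129/svj was Dusp16 in both comparisons. It passed the detection filter through the 129/svj mice alone, so its calls do not count as a test result. Ctgf read 10.23, 9.59 and 9.41 in BALB/C and 11.01, 11.65 and 11.70 in DBA1, 3.28-fold lower in BALB/C (adjusted p = 0.0137 in limma). Across the matched probes, resistant minus sensitive was -1.23 for Ctgf in this table and 1.88 in that of B6 and NZW, and the difference between the tables was -3.11 (SE 0.39, adjusted p = 6.51e-05 in limma). Snf1lk, a salt-inducible kinase, was 1.99-fold lower in BALB/C than in DBA1 and 1.89-fold higher in DBA1 than in 129/svj. Klf1 was 3.93-fold lower in BALB/C and 3.87-fold higher in DBA1 than in 129/svj, but it was detected in 1 BALB/C and 2 129/svj mice of 3, against 3 in DBA1, so part of the signals behind these folds were not above background. The mean of the within-table differences, resistant minus sensitive, was -1.06 for Klf1 (SE 0.20, adjusted p = 0.00248 in limma). For Rps6ka1 it was -0.49 (SE 0.12, adjusted p = 0.0162 in limma). These p-values rest on the spread between mice of a strain, so they hold for these strains and not for resistance as such. For Klf1 the BALB/C mean of 5.64 was level with the 129/svj mean of 5.66, and DBA1, at 7.61, carried the difference in that table. With both tables normalized together, the Rps6ka1 difference was -0.67 in B6 minus NZW (adjusted p = 0.0332 in limma), beside -0.76 within that table alone. It did not pass in the other table (-0.31, adjusted p = 0.279). The summed signal of red blood cell markers overlapped between B6 (50200 to 94800) and NZW (61800 to 82100), and its part in Klf1 was not tested. Dusp4, a nuclear MAP kinase phosphatase, was 2.26-fold higher in DBA1 than in 129/svj.

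Dusp16, a JNK and p38 phosphatase, was not detected in any BALB/C or DBA1 mouse and read 8.86, 8.97 and 9.10 in 129/svj. Setting the 129/svj mean of 8.98 against the lowest detected signal of each array gave a difference of at least 9.81-fold from BALB/C and at least 9.83-fold from DBA1. The measured differences were -3.95 and -3.93 on the log2 scale. The probe passed the detection filter through the 129/svj mice alone, so no p is given for them. The bounds themselves were not tested.

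Resistant and sensitive strains were compared across both tables for Egr1 and Ier3, the members whose search key was unique in both. The mean of the 2 within-table differences, resistant minus sensitive, was -0.31 for Ier3 (SE 0.14, adjusted p = 0.206 in limma) and -0.30 for Egr1 (SE 0.40, adjusted p = 0.733). Neither was called, against 12.0% of 6896 matched probes. At an unadjusted p below 0.05 Ier3 passed (0.0485 in limma), as did 23.9% of those probes. The difference between the tables in this contrast was -0.61 for Ier3 (SE 0.29, adjusted p = 0.230 in limma) and -0.46 for Egr1 (SE 0.81, adjusted p = 0.812), and 10.3% of matched probes were called for it.

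Members varied more between mice of a strain than the median probe in 3 of 3 cases in the table of BALB/C, DBA1 and 129/svj and in 7 of 9 in the table of B6 and NZW. In the first of these tables the SD around the strain mean was 1.07 for Egr1, above 99.6% of tested probes, 0.61 for Klf6, above 97.1%, and 0.36 for Ier3, above 81.0%. The median SD of all tested probes was 0.24. Among probes within 0.5 of its own level, Egr1 was above 99.5% of 2435. Repeat arrays of 1 mouse differed by 0.04, 0.12 and 0.42 for Egr1 and by 0.07, 0.20 and 0.33 for Klf6. The 0.33 was in BALB/C, where the SD of Klf6 between mice was 0.16. For Ier3 the repeats differed by 0.08, 0.14 and 0.42, the last in BALB/C, where the SD between mice was 0.35. A difference of 2 arrays and an SD are unlike measures.

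In B6 and NZW the median SD was 0.16. Atf3 (0.47, above 98.3% of probes), Dusp1 (0.32, above 91.7%), Zfp36 (0.30, above 89.5%) and Egr1 (0.28, above 86.7%) were the more variable members. Fos (0.23), Jun (0.21), Junb (0.18) and Klf6 (0.16) lay nearer the middle of all tested probes, and Ier3 (0.07) was below the middle, above 7.70% of probes. Fos and Atf3 ranked lower, and each other member higher, than among all tested probes when set against probes within 0.5 of their own level. Jun was above 83.3% of them, Klf6 above 79.6%, Junb above 77.1%, Fos above 70.8% and Ier3 above 23.7%. Atf3, Dusp1, Zfp36 and Egr1 were above 95.1% to 98.0%. The standard error between beads of 1 array was 2.73% to 3.58% of the signal for Dusp1 and 6.04% to 11.5% for the dim Atf3 probe.

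**Figure D4:**
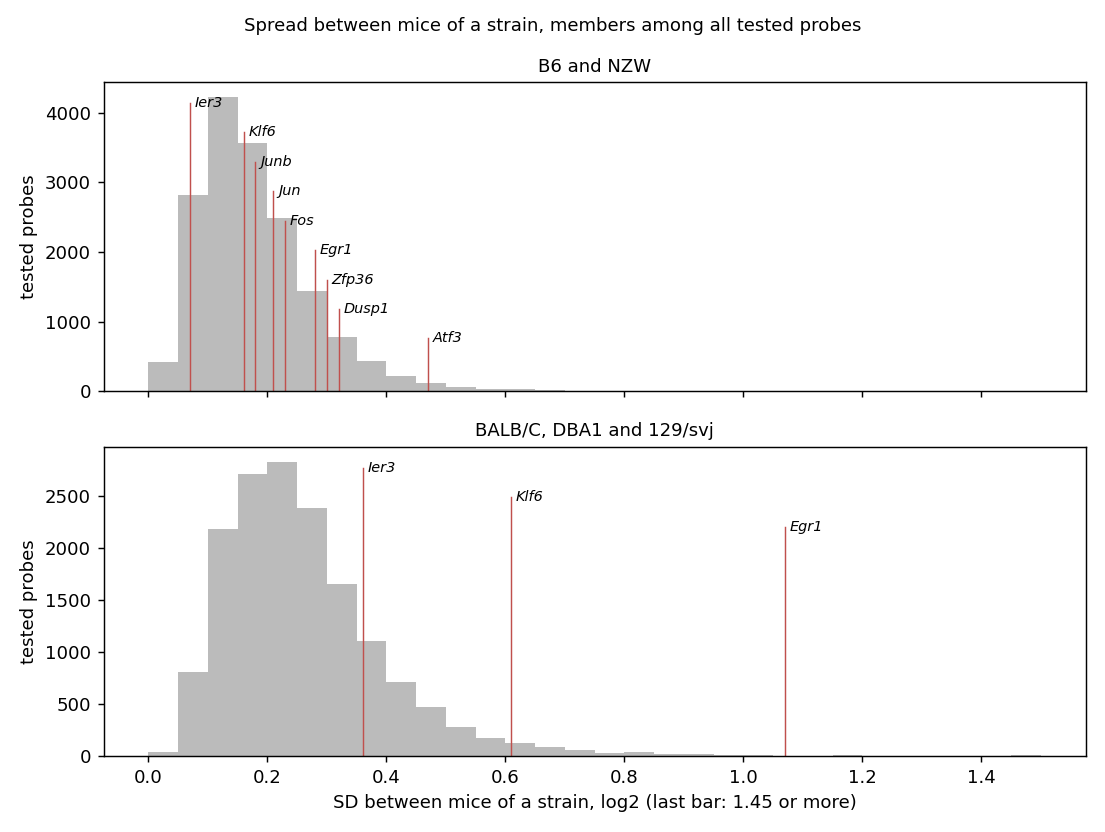
Number of tested probes (y axis) by SD between mice of a strain on the log2 scale (x axis), with each tested member as a red line, in the table of B6 and NZW (top) and in the table of the other strains (bottom). Egr1, at 1.07, lies in the far tail of the lower distribution, and Ier3, at 0.07, at the low end of the upper one.

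The members tended to deviate together from mouse to mouse. The first B6 mouse was above the mean of its strain in 9 of 9 members and the third in 0 of 9, and the first NZW mouse was above in 8 of 9. Over the 6 mice of that table, 30 of the 36 pairs of members had a positive correlation of their deviations, with a median r of 0.50, whereas pairs from an even sample of 838 probes had a median of 0.00. The 3 AP-1 genes were the closest group, with r = 0.97 for Fos and Junb, 0.91 for Fos and Jun, and 0.82 for Jun and Junb. Egr1 and Zfp36 had r = 0.94, and Dusp1 and Zfp36 had r = 0.88. Ier3 was negative with the AP-1 genes and Atf3, at -0.76 with Jun and -0.64 with Fos, and weakly positive with Egr1, Dusp1, Klf6 and Zfp36, at 0.10 to 0.34, on deviations that were themselves at most 0.11 in size. The arrays, and the extraction behind each, are shared by all genes of a mouse.

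In the table of the other strains all 3 pairs were positive, at 0.45 to 0.81 over 9 mice, and the third 129/svj mouse carried the largest deviation of each gene, 1.89 for Egr1, 0.88 for Klf6 and 0.55 for Ier3. Over the array, that mouse had 149 tested probes more than 1 above and 24 more than 1 below its strain mean. The third DBA1 mouse likewise had 126 above and 80 below, and its tubule injury markers summed to 7540. In the third 129/svj mouse macrophage markers summed to 2060, against 745 and 537 in the first and second mouse. S100a8, the tested neutrophil marker, read 1030 against 292 and 28.9, tubule injury markers 4450 against 1400 and 1040, and proximal tubule markers 20900 against 27900 and 29100. The part of these in the Egr1 value was not tested.

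**Figure D5:**
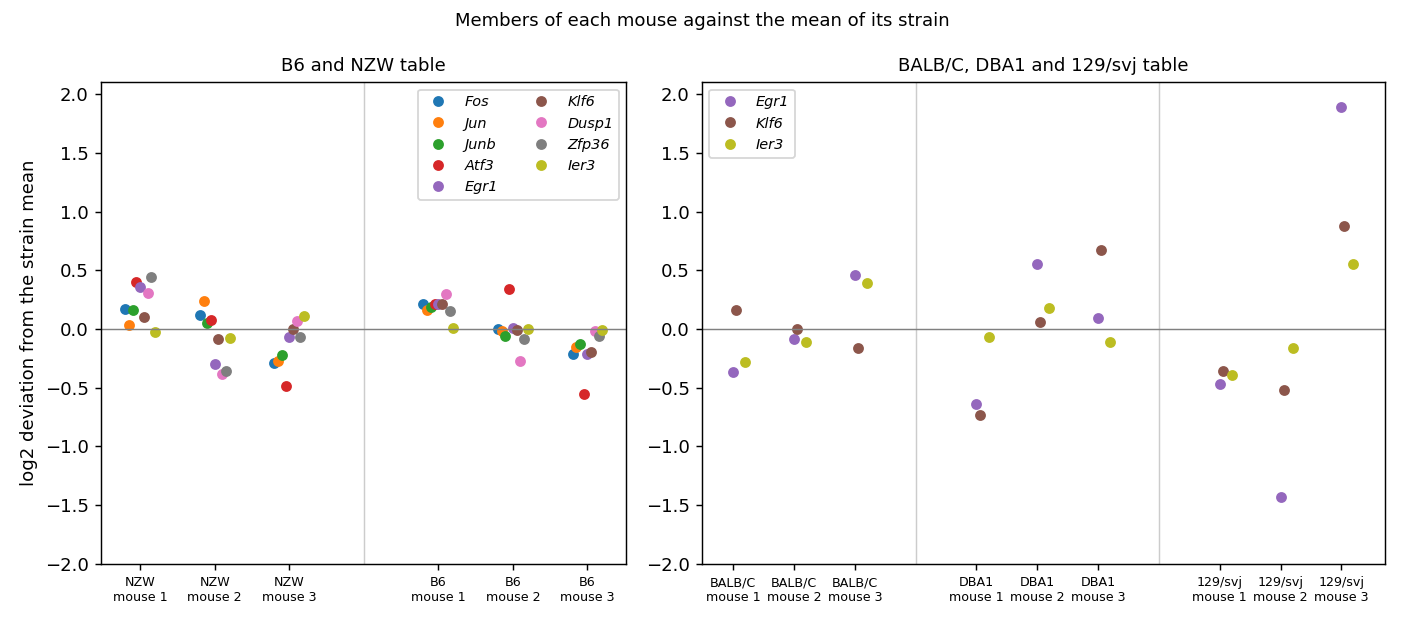
Log2 deviation from the strain mean (y axis) of each tested member, 1 colour per gene, in each mouse (x axis), in the table of B6 and NZW (left) and of the other strains (right). All 9 members lie above 0 in the first B6 mouse, and Egr1 reaches 1.89 in the third 129/svj mouse.

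Probes that followed Egr1 most closely were ranked over all 15 mice by the Pearson correlation of their deviations, among 6894 matched probes of other genes. The 10 nearest had r of 0.92 to 0.94, and they included Bcl2a1b (2 probes), a Bcl2-type survival gene of leukocytes, Emilin1, an elastic fibre protein, Cstb, a cathepsin inhibitor, Morf4l2, a chromatin protein, H2-Q6, a class I histocompatibility gene, Mgp, a matrix calcification inhibitor, LOC673251 and LOC640739. In all 10 the deviation from the strain mean was highest in the third 129/svj mouse, at 0.40 to 1.41, as it was for Egr1. That follows from choosing probes by their likeness to Egr1. Without that mouse their r was 0.64 to 0.91. Ier3 had r = 0.79 with Egr1, above 98.2% of these probes, and 0.41 without that mouse. All genes of a mouse share its array, its extraction and its cell content.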

How the data were processed

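RNA of the kidney cortex of 15 mice had been hybridised to 18 arrays of the Illumina Mouse WG-6 v1 BeadChip type. Per the file headers, the deposited values are, per array and probe, the mean bead intensity without normalization, its detection p-value and bead counts, in 2 tables (B6 and NZW; BALB/C, DBA1 and 129/svj). The deposited standard error of the bead signal was used only as a share of the signal. The labels name BeadStudio as the software of the authors, and array normalization is not given in the sources used here. The array methods of the study point to earlier work.

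Each table was handled separately. Background was removed with normexp (limma 3.58.1, R 4.3.3), its parameters estimated through the detection p-values and 16 added, and all probes were then quantile normalized and put on the log2 scale. In the table of B6 and NZW, 11 repeated probe rows were averaged. Repeat arrays were averaged with the first array of the mouse. A probe was tested if it was detected (p at or under 0.05) in 3 or more mice of its table, and was fitted with 1 coefficient per strain (lmFit and eBayes, moderated statistics, Benjamini-Hochberg over all tested probes, call below 0.05). For contrasts over both tables (Egr1, Ier3, Ctgf, Klf1 and Rps6ka1), arrays of both were normalized together. This used 19886 probes matched by a search key unique in both, and 6896 were tested. P-values measure the spread between these mice, 3 per strain, whose number limits the precision. For resistant against sensitive strains they do not measure the spread between strains of the same kind.

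The members and the pathway lists were chosen with earlier results of these data known. Named genes were every member probe, up to 2 genes per list, comparison and direction with the largest called differences, and the 10 probes nearest to Egr1 by correlation (Fos has no matched row), of which 1 is not reported here. Each list gene was read from its brightest tested probe. Marker lists (macrophage, neutrophil, lymphocyte, endothelium, smooth muscle and fibroblast, podocyte, proximal tubule, distal nephron, tubule injury, red blood cell) were summed as linear signals. The lymphocyte sum was 837 to 1690 in B6 and 596 to 773 in NZW, and sums of podocyte, endothelial and smooth muscle markers are given after the report. Upstream sequences of 250 bases came from RefSeq (GRCm38.p6), without the transcribed bases. The test was checked on simulated data before use. Alternatives covered background, offset, scaling, filter, repeat arrays, variance model, the methods' t-test, a replicate block, a strain block and each mouse left out.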

Additional observations from a re-analysis of the deposited data

Results flagged for a closer look

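Ctgf, from the list of other immediate-early genes, was flagged because the contrast of resistant against sensitive strains differed between the tables. It was 1.88 higher in B6 than in NZW and -1.23 in BALB/C against the mean of DBA1 and 129/svj on the log2 scale, and the difference between these contrasts was -3.11 (SE 0.39, adjusted p = 6.51e-05 in limma, n = 3 mice per strain). The mean over both tables was 0.33 (SE 0.20, adjusted p = 0.351). Strains and tables coincide in this contrast and cannot be told apart. Strains of 3 mice are too small for the test of single outlying mice, so none was made.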

How the results depend on the processing

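Jun stayed lower in B6 under all 15 alternatives, with differences of -0.93 to -0.66, and lost the call in 1, the methods' t-test after adjustment (adjusted p = 0.0738). The number of members called between B6 and NZW, 1 in the report, was 3 without background correction and with an offset of 50 (Jun, Fos and Dusp1), 4 with 75th percentile scaling, 2 with probes detected in every mouse or with an intensity trend, 0 with the adjusted t-test and with joint normalization, where Jun had no matched probe, and 1 to 2 with a mouse left out. The replicate block gave 4 members called (Jun, Fos, Dusp1 and Atf3, adjusted p = 0.0283 for Atf3 in limma). Over all 16756 tested probes, calls numbered 3470 without background correction, 3420 with an offset of 50 and 3833 with 75th percentile scaling. They numbered 3559 with an intensity trend, 1851 with the adjusted t-test and 2621 with the replicate block, beside 3157 in the report. With probes detected in every mouse they were 2520 of 13779, and with joint normalization 678 of 6896. With a mouse left out they numbered 2082 to 2717. Same-numbered mice had deviations that correlated at -0.26 to 0.39, highest for the third mice of DBA1 and 129/svj. Whether same-numbered arrays shared a batch was not tested. Between BALB/C and DBA1, the unadjusted t-test called 2, joint normalization 1 (Ier3), and leaving out a mouse 0 to 1. Over all probes these settings called 2728 of 15818, 651 of 6896 and 495 to 1153 of 15818. Leaving out a mouse also gave 0 to 1 between DBA1 and 129/svj, beside 476 to 772 over all probes. The pathway genes lower in B6 numbered 8 with the t-test, 19 to 32 with the other settings and 9 to 19 with a mouse left out. These settings were chosen for the lists after seeing the data. Among all tested probes the share called lower was 5.2%, 3.02% to 14.6% and 5.63% to 7.87%.

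Signs turned for differences that were not called. BALB/C minus 129/svj was -0.04 for Egr1 without background correction and 0.00 for Klf6 on first arrays. Leaving out 1 mouse gave -0.21 to 0.12 for Egr1 and -0.08 to 0.02 for Ier3 in B6 minus NZW, -0.65 to 0.05 for Klf6 in BALB/C minus DBA1, -0.56 to 1.10 for Egr1 and -0.30 to 0.40 for Klf6 in BALB/C minus 129/svj, -0.09 to 0.68 for Klf6 in DBA1 minus 129/svj, and -0.34 to 0.06 for Klf6 in BALB/C against the mean of the sensitive strains. The cause was not tested. Over all probes, calls between B6 and NZW numbered 3157, 1851 with the adjusted t-test and 2082 without the second B6 mouse. Between BALB/C and DBA1 they numbered 909, 399 with that t-test and 495 without the second BALB/C mouse. Signals near the background limit Atf3, Myc, the dim Junb and Klf6 probes and Egr1 in the second 129/svj mouse.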

Other observations

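Podocyte markers, as linear normalized signals, summed to 9370 to 10400 in B6 and 8940 to 11000 in NZW. Endothelial markers summed to 10700 to 11500 and 9830 to 11400, smooth muscle, pericyte and fibroblast markers to 11700 to 16000 and 10200 to 11800, and tubule injury markers to 16400 to 30200 and 14700 to 16500. In the table of the other strains, smooth muscle, pericyte and fibroblast markers summed to 4520 to 6540 in BALB/C, 9680 to 12100 in DBA1 and 7160 to 11400 in 129/svj, so every BALB/C mouse was below every mouse of the sensitive strains. Proximal tubule markers summed to 32900 to 36600 in BALB/C, 26400 to 34500 in DBA1 and 20900 to 29100 in 129/svj, without overlap between BALB/C and 129/svj.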
